A study of Mus musculus with 24 samples.

Results

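The genes examined are 36 members of the mouse cholesterol and fatty acid synthesis pathways, listed by symbol and measured in every one of 24 mammary tumour libraries. They comprise a sterol arm of 19 genes, 5 regulators and a fatty acid arm of 12 genes, out of 46318 gene IDs in the deposited counts and 15820 genes that passed the filter on low counts. All 36 members passed that filter, and none was chosen by its level. The tumours arose in MMTV-PyMT mice, which express the polyoma middle T oncogene in mammary epithelium under the mammary tumour virus promoter. The labels name 12 libraries as KO (NR0B2-/- PyMT+) and 12 as WT (NR0B2+/+ PyMT+), so that all tumours carry the oncogene. Nr0b2 encodes SHP, an orphan nuclear receptor that represses other transcription factors and is best known in the liver for limiting bile acid synthesis from cholesterol. Tumours were taken at a volume of 2000 mm3, frozen and homogenised whole. The sources used here state neither the age of the mice nor that the tumours are from 24 different mice. The p-values therefore measure the spread between these tumours.

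Cholesterol is built from acetyl-CoA through mevalonate, isoprenoid diphosphates, squalene and lanosterol, and fatty acids are built from the same precursor by carboxylation, chain synthesis, elongation and desaturation. Both arms are transcribed under SREBP factors, which sit in the endoplasmic reticulum with their escort SCAP and are held there by INSIG proteins when sterol is plentiful. SREBP2 is known mainly for the sterol genes and SREBP1c for the fatty acid genes. In the normal mammary gland the fatty acid arm serves milk fat synthesis, and the neighbouring fat pad holds adipocytes that express many of the same genes.

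Counted reads per library ran from 18789250 to 38022182, and the lowest count of any member in any library was 111 reads, for Tm7sf2. The targeted gene went against the labels: Nr0b2 had 182 reads summed over the libraries labelled KO (3 to 71 in each of the 12) and 1 read summed over those labelled WT. The part of the gene that was read cannot be seen in the counts, so directions are given by label only. The epithelial marker Epcam averaged 1062 ± 103 CPM (counts scaled to library size, SD, n = 12) in the libraries labelled KO and 1017 ± 161 CPM in those labelled WT. In bulk tumour RNA, fewer cells of a type and less RNA per cell cannot be told apart. Several libraries stood apart from the rest. KO 12 had the fewest reads, 71 of the Nr0b2 reads and a library-wide slope with gene length: its centred levels had a Spearman correlation of -0.48 with gene length across tested genes, against -0.16 to 0.28 in the other 23 libraries. KO 11 had the highest sums of fat, muscle, macrophage and fibroblast markers. Its sum of epithelial markers was the lowest, at 3684 CPM. The chromosome 3 genes of KO 9 and KO 10 had median centred log2 levels of 0.44 and 0.42. On chromosome 11 this median was 0.30 in WT 19, 0.21 in WT 23, 0.20 in WT 13, 0.13 in WT 24 and 0.10 in WT 17. It ran from -0.10 to -0.03 in the other WT libraries and from -0.14 to 0.04 in KO. Pmvk, Fdps and Elovl6 lie on chromosome 3, and Srebf1, Acly, Acaca and Fasn on chromosome 11.

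The comparison of the tumours labelled KO with those labelled WT asks whether lipid synthesis genes differ with Nr0b2. No member passed the test in either direction in edgeR's quasi-likelihood test with Benjamini-Hochberg adjustment over all 15820 genes, where 0.316% of genes did (0.177% higher and 0.139% lower in KO). DESeq2 and limma voom also called 0 members, where they called 2.64% and 0.436% of the 15820 genes. At an unadjusted p under 0.05, edgeR placed 7 members higher and 2 lower in KO, against 10% of all tested genes higher and 8.9% lower. The fitted log2 change (KO over WT) lay above 0 for 30 of the 36 members, against 51.3% of tested genes. By arm, 19 of 19 sterol genes lay above 0 with a median of 0.19, 2 of 5 regulators with a median of -0.06, and 9 of 12 fatty acid genes with a median of 0.32, while the median over all tested genes was 0.01. Over all tested genes the log2 change sloped with gene length, with a Spearman correlation of -0.34 across genes (genes are not independent replicates), and its part in the arm medians was not tested. The median gene length was 2867 bases in the sterol arm, 4905 in the regulators and 4246 in the fatty acid arm, against 3643 for all tested genes. Each arm's median rested partly on 1 library. Without KO 12 the sterol median was 0.10, and without KO 11 the fatty acid median was 0.13. Without both libraries the sterol and fatty acid medians were 0.13 and 0.12, with 18 of 19 and 8 of 12 genes above 0.

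**Figure D1:**
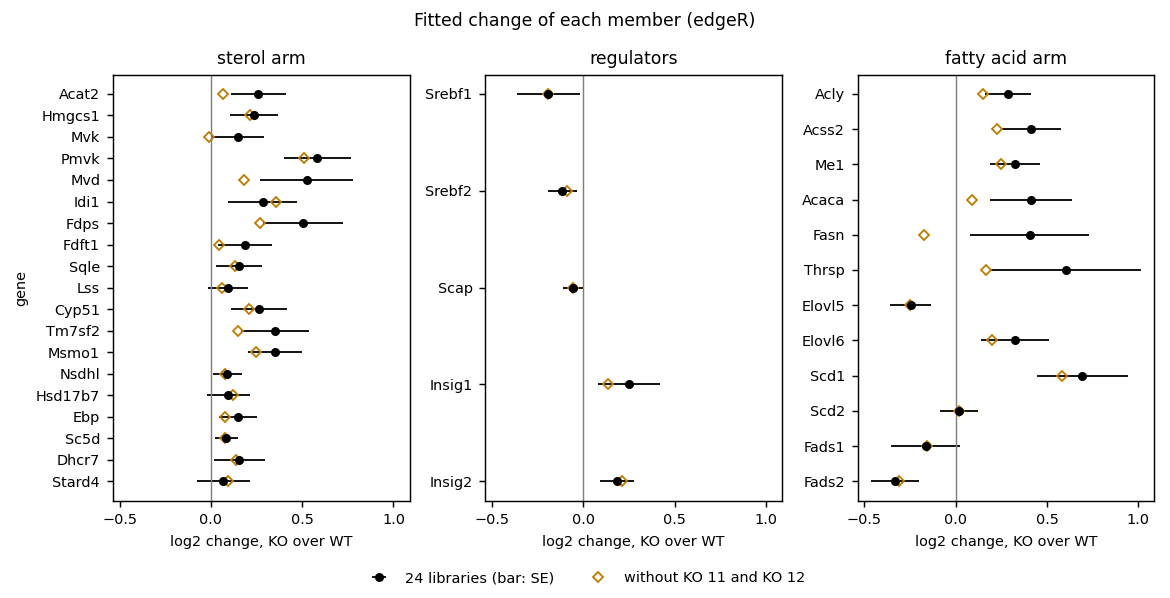
Fitted log2 change (KO over WT) of each member by arm; black points show all 24 libraries with the standard error as bar, and open diamonds the same fit without KO 11 and KO 12. All black sterol points lie right of 0, the open Mvk diamond lies at -0.01, and Fasn lies at 0.41 with all libraries and at -0.17 without the 2.

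The sterol arm begins with the steps that make and activate mevalonate. Pmvk, phosphomevalonate kinase (chromosome 3, 89361848 to 89376321, plus strand, GRCm39), had from 58.8 to 133.6 CPM in the libraries labelled KO (median 68.4), against 31.2 to 88.1 CPM in those labelled WT (median 48.7). All 12 libraries labelled KO lay above the WT median, though 9 of them lay within the WT range. Its log2 change was 0.58 ± 0.18 (SE), with an adjusted p of 0.127 in edgeR, and it was the smallest p among the members. The lowest adjusted p that Pmvk, or any member, reached under an alternative setting was 0.0572, in DESeq2. Its 2 highest KO values were in KO 12 and KO 10, and with chromosome medians as offsets its log2 change was 0.46. In that fit the smallest adjusted p among the members was not that of Pmvk but that of Acly, at 0.168 (edgeR). Mvd, mevalonate diphosphate decarboxylase, had 6.005 to 44.9 CPM in KO (median 10.9) and 5.98 to 15.5 CPM in WT (median 9.50). The highest value was that of KO 12, and 11 of the 12 KO values lay within the WT range. The log2 change of Mvd was 0.52 ± 0.26 (adjusted p 0.267, edgeR), and 28.6% of its exon bases are shared with an antisense gene that these counts do not separate by strand. Acat2, which makes acetoacetyl-CoA, Hmgcs1, which makes HMG-CoA, and Mvk, mevalonate kinase, had log2 changes of 0.26, 0.24 and 0.15, with adjusted p-values from 0.327 to 0.581 in edgeR.

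The isoprenoid and squalene steps followed. Fdps, farnesyl diphosphate synthase (chromosome 3, 89000895 to 89009274, minus strand), ran from 52.2 to 254.5 CPM in KO (median 73.6) and from 29.0 to 91.2 CPM in WT (median 58.9). KO 12 alone lay above the WT range, and WT 13 held the lowest value. The log2 change was 0.50 ± 0.22 (adjusted p 0.221, edgeR). Per length, Fdps stood highest in the sterol arm, with 60.1 ± 36.8 CPM per kb in KO and 42.3 ± 12.3 in WT, followed by Ebp, a sterol isomerase, with 35.2 ± 7.84 CPM per kb in KO and 31.7 ± 5.03 in WT. Idi1, which interconverts the isoprenoid units, Fdft1, squalene synthase, Sqle, the oxygen-dependent squalene epoxidase, and Lss, lanosterol synthase, had log2 changes of 0.28, 0.19, 0.16 and 0.09. Their adjusted p-values ran from 0.416 to 0.650 in edgeR. Fdft1 shares 7.43% of its exon bases with Ctsb, and Lss shares 5.48% with another gene, both on the opposite strand. Sqle showed almost full overlap, with 61.8 to 121.2 CPM in KO (median 81.7) and 49.2 to 122.1 CPM in WT (median 80.7).

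Among the post-squalene steps, Msmo1, the methylsterol oxidase (chromosome 8, 65171157 to 65186822, minus strand), had 33.3 to 82.4 CPM in KO (median 40.8) and 25.2 to 57.4 CPM in WT (median 32.6). All 12 KO values were above the WT median and 11 lay within the WT range. This gave a log2 change of 0.35 ± 0.15 (adjusted p 0.213, edgeR). The other 7 genes of these steps are the lanosterol demethylase Cyp51, the sterol reductases Tm7sf2 and Dhcr7, the dehydrogenases Nsdhl and Hsd17b7, the isomerase Ebp and the desaturase Sc5d. Their log2 changes ran from 0.08 for Sc5d to 0.35 for Tm7sf2, with adjusted p-values from 0.303 to 0.673 in edgeR. Stard4, which carries cholesterol between membranes, had the smallest value of the arm at 0.07 (adjusted p 0.822, edgeR). Hsd17b7 was the lowest member per length, at 3.44 ± 0.64 CPM per kb in KO and 3.22 ± 0.70 in WT.

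**Figure D2:**
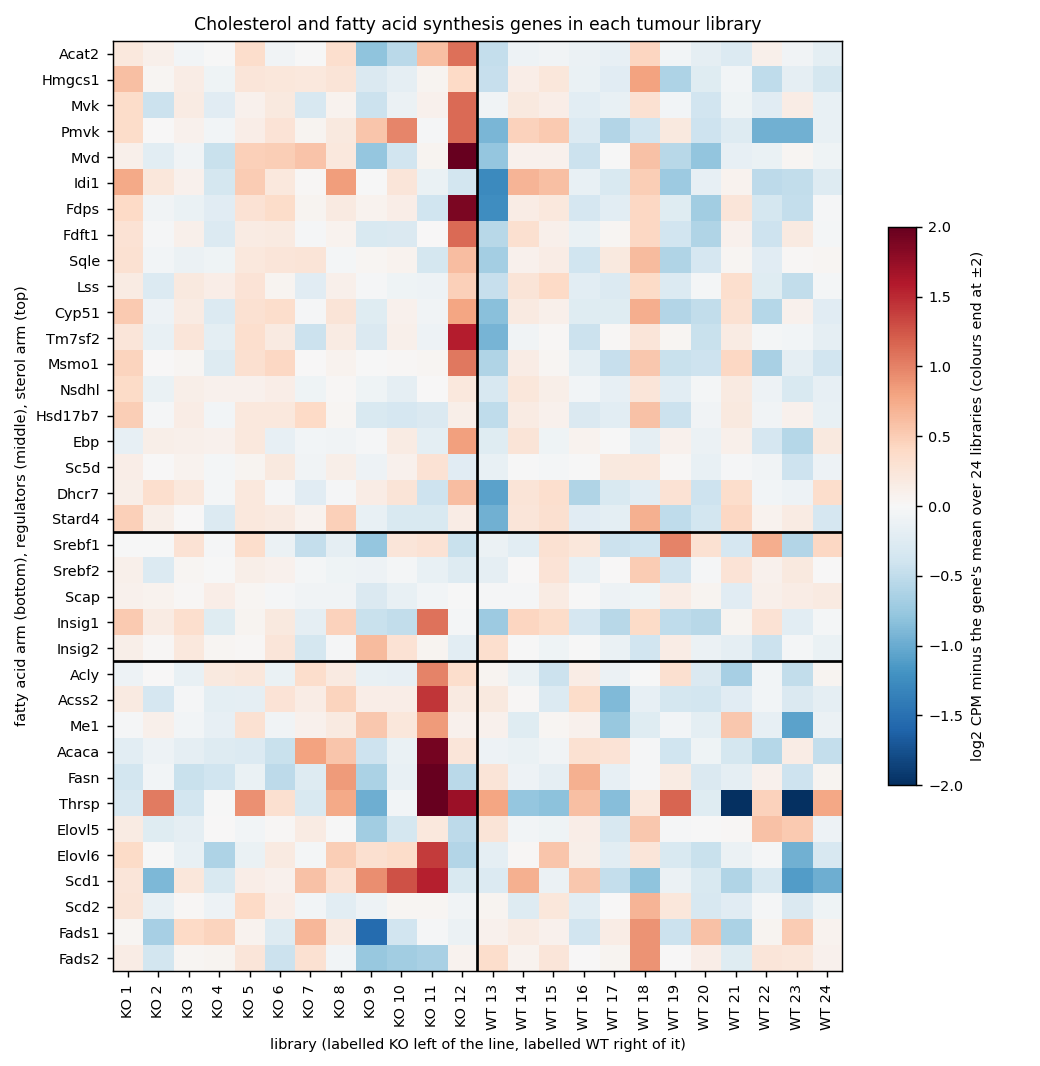
Log2 CPM of each member minus its mean over 24 libraries (colour, red above and blue below the mean), with libraries labelled KO left and WT right of the line. The sterol block is darkest red in KO 12 and blue in WT 13, and the fatty acid block is darkest red in KO 11.

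The level of the whole sterol arm varied widely between tumours of a group. The sterol score, the mean centred log2 CPM of the 19 genes, ran from -0.16 to 0.77 in KO (median 0.04) and from -0.66 to 0.37 in WT (median -0.17). All 12 KO scores were above the WT median, and the ranges overlapped. The group means differed by 0.23, less than the SD within the groups, 0.26 in KO and 0.28 in WT. KO 12 held the highest KO value of 13 of the 19 genes, WT 18 the highest WT value of 14, and WT 13 the lowest WT value of 10. KO 12 is the library whose levels slope most with length. The part of that slope in its sterol score was not tested. The epithelial marker sum of KO 12 was also the highest of all libraries, at 9119 CPM, against KO and WT medians of 5132 and 4627 CPM. Krt8, Krt18, Cldn3 and Cldn7 were highest in KO 12, with Krt18 at 2994 CPM and Krt8 at 2203 CPM. Epcam, Cdh1 and Krt19 were not highest there. KO 12 had 1138, 753.0 and 755.2 CPM of them, against highest WT values of 1301, 917.4 and 1321 CPM. The part of gene length in this sum was not tested.

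**Figure D3:**
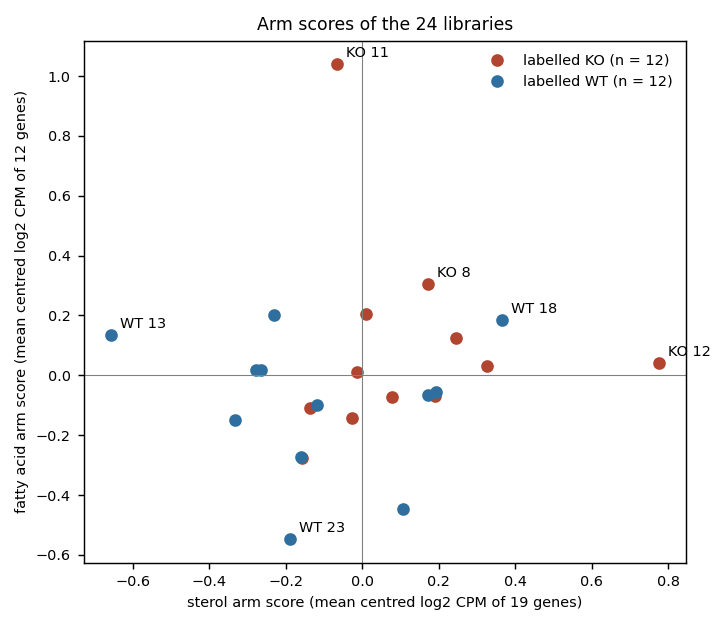
Sterol arm score (x axis) against fatty acid arm score (y axis), each the mean centred log2 CPM of the arm's genes, with 1 point per library. KO 12 stands alone to the right at 0.77, KO 11 alone at the top at 1.04, and WT 13 at the left at -0.66.

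The sterol genes varied together from tumour to tumour. Across the 24 libraries, centred on their group means, the median Pearson r over the 171 pairs of sterol genes was 0.54, with 162 pairs above 0, against a median of -0.002 over all pairs of tested genes. These are descriptions across 24 libraries that share depth and composition, with no p. The median was 0.52 in the KO libraries alone, 0.61 in the WT libraries alone, and 0.47 without KO 12 and WT 13, settings chosen after the data were seen. Msmo1 and Cyp51, which act close together on the route from lanosterol, formed the closest pair at r = 0.92, followed by Mvd with Fdft1 at 0.90 and Fdps with Tm7sf2 at 0.88. Of the 19 genes, 13 had a median r of at least 0.5 with the rest of the arm, a level reached by 2.0% of tested genes. Msmo1 and Cyp51 were highest, at 0.73 and 0.72, and the members least tied to the arm were Sc5d at 0.05, Ebp at 0.32 and Pmvk at 0.38. The co-variation was not particular to sterol genes. The 6 cycling markers had a median r of 0.42 (Mki67) to 0.55 (Ccnb1) with the sterol arm. The part of proliferation in the sterol values was not tested. Of 15 tested sterol pathway genes outside the 36, 10 had log2 changes above 0 with a median of 0.03, edgeR called 0, and 1 was higher and 1 lower in KO at an unadjusted p under 0.05. The smallest p-values were those of Npc2, which moves cholesterol out of lysosomes (284.3 ± 92.9 CPM in KO and 222.3 ± 31.1 in WT, log2 change 0.36 ± 0.13, adjusted p 0.168, edgeR), and Mbtps1, the protease that cleaves SREBPs (199.8 ± 20.1 CPM in KO and 219.3 ± 14.8 in WT, log2 change -0.13 ± 0.06, adjusted p 0.226, edgeR).

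**Figure D4:**
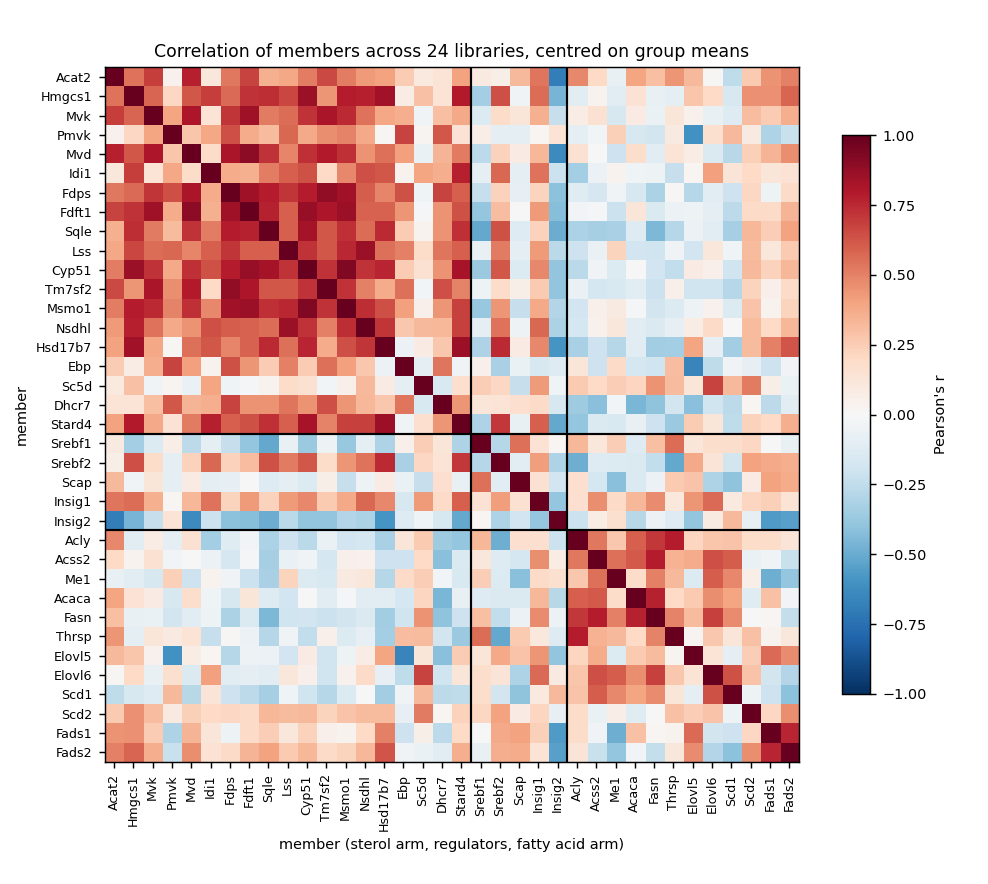
Pearson's r of each pair of members across 24 libraries centred on group means (red positive, blue negative), with lines between the sterol arm, the regulators and the fatty acid arm. The sterol block is mostly red, with a median r of 0.54, and the fatty acid block is mixed, with a median of 0.27. The block between the arms is also mixed, from -0.66 to 0.68 with a median of -0.03.

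Because the sterol genes varied together, the stretch before their start sites is shown for the 2 closest, Msmo1 and Cyp51, and for Hmgcs1. Among the 15 of 19 sterol genes with a RefSeq promoter window, Hmgcs1 was the 1 whose window held the letters TCACNCCAC. A window runs from 250 bases before to 50 after the start (GRCm38.p6). These letters are a form of the sterol regulatory element that SREBPs bind. Fdps, Fdft1, Sqle and Stard4 had no window and were not searched. The 250 bases before each start are printed 5′ to 3′ on the gene's strand, from chr13:119690101-119690350 (plus strand) for Hmgcs1, chr8:64733579-64733828 (minus strand) for Msmo1 and chr5:4104698-4104947 (minus strand) for Cyp51, all in GRCm38.p6 and not in the build of the counts. Capitals mark TCACNCCAC and the letters CCAAT on either strand (ATTGG on the opposite one), the box bound by NF-Y, a known partner of SREBPs.
Hmgcs1: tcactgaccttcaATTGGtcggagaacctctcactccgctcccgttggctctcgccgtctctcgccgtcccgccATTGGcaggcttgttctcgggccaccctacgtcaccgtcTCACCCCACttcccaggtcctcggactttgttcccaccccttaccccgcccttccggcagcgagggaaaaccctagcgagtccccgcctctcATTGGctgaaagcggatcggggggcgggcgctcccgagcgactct
Msmo1: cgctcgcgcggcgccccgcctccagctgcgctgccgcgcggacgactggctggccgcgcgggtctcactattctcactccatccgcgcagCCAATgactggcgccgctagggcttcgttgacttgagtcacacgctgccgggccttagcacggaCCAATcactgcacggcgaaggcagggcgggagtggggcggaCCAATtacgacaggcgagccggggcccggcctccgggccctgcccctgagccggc
Cyp51: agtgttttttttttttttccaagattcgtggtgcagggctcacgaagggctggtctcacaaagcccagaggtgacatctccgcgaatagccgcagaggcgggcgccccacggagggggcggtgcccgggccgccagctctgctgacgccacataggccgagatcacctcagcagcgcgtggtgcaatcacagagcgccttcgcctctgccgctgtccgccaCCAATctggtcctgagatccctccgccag
Hmgcs1 shows 3 CCAAT boxes around its sterol element, Msmo1 shows 3 and Cyp51 shows 1. Of the 36 members, 29 had a window, 38 windows in all. On either strand, TCACNCCAC was found in 1 of 18 sterol windows, 0 of 10 regulator windows and 0 of 10 fatty acid windows, and in 1.24% of all 32851 windows. CCAAT was found in 77.8% of sterol, 50% of regulator and 60% of fatty acid windows, against 37.4% of all windows. GGGCGG, the letters bound by SP1, was found in 83.3%, 80% and 40% of them, against 35.7% of all windows. The 3 letter strings were searched separately, and a match is a description of the letters only.

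The regulators lay on both sides of 0. Srebf1 (chromosome 11, 60089910 to 60113407, minus strand), which encodes SREBP1, ran from 429.3 to 937.4 CPM in KO (median 728.5) and from 493.3 to 1465 CPM in WT (median 772.4), with a log2 change of -0.19 ± 0.17 (adjusted p 0.547, edgeR). The highest value was that of WT 19, and 2.32% of Srebf1's exon bases are shared with Rai1. Srebf2, which encodes SREBP2, ran from 142.7 to 188.0 CPM in KO (median 168.0) and from 132.6 to 244.8 CPM in WT (median 173.5), and all 12 KO values lay within the WT range. Its log2 change was -0.11 ± 0.08 (adjusted p 0.432, edgeR). Per length, Srebf1 had 146.5 ± 33.4 CPM per kb in KO and 167.3 ± 60.8 in WT, and Srebf2 had 29.8 ± 2.68 in KO and 32.3 ± 5.41 in WT. Scap, the escort, was the steadiest member, with 126.4 ± 9.62 CPM in KO and 131.3 ± 11.3 in WT (log2 change -0.06, adjusted p 0.586, edgeR).

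The INSIG genes had positive log2 changes that did not pass the test. Insig2 (chromosome 1, 121232082 to 121260391, minus strand) ran from 51.7 to 101.9 CPM in KO (median 68.1) and from 49.2 to 82.9 CPM in WT (median 61.4), with 10 of 12 KO values above the WT median and a log2 change of 0.18 ± 0.09 (adjusted p 0.284, edgeR). Insig1, itself an SREBP target, ran from 32.1 to 95.5 CPM in KO (median 48.2) and from 27.0 to 60.1 CPM in WT (median 41.1), with a log2 change of 0.25 ± 0.17 (adjusted p 0.420, edgeR). The highest Insig1 value was that of KO 11. The 2 genes stood on opposite sides of the sterol arm: the median r with the 19 genes was 0.43 for Insig1 and -0.39 for Insig2, and Insig2 had the most negative pair of all members, r = -0.69 with Acat2. Srebf2 had a median r of 0.30 with the sterol arm, Scap of -0.06 and Srebf1 of -0.14. The log2 ratios Insig1 over Insig2 and Srebf1 over Srebf2 differed between KO and WT by 0.06 ± 0.23 and -0.05 ± 0.21 (SE), each with a permutation p adjusted over 3 ratios of 0.833.

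The fatty acid arm held the highest levels of the list and its most uneven libraries. Per length, Scd1, the desaturase that makes oleate, stood first, with 579.7 ± 296.0 CPM per kb in KO and 358.8 ± 149.5 in WT. Thrsp, a lipogenic protein of the normal mammary gland, followed with 256.5 ± 176.9 in KO and 169.0 ± 110.1 in WT, and then Scd2 with 166.6 ± 21.3 in KO and 164.8 ± 37.4 in WT. Thrsp, Scd2 and Srebf1 had levels that did not separate beyond their spread. Fads2, Acly, Me1 and Fasn came next in the arm, at 42.4 to 61.2 CPM per kb as group means, and Acaca was lowest at 9.12 ± 6.30 in KO and 6.86 ± 1.35 in WT.

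Scd1 (chromosome 19, 44382889 to 44396148, minus strand) had the largest fitted log2 change of the 36 members. It ran from 1080 to 5961 CPM in KO (median 2376) and from 935.0 to 3320 CPM in WT (median 1632). KO 9, KO 10 and KO 11 lay above the WT range, and 10 of 12 KO values were above the WT median. The log2 change was 0.69 ± 0.25 (adjusted p 0.167, edgeR), and 0.54 without KO 11. Scd2, its paralogue on chromosome 19, had 770.7 to 1172 CPM in KO (median 879.8) and 711.9 to 1435 CPM in WT (median 857.2). Its log2 change was 0.02 ± 0.10 (adjusted p 0.950, edgeR), with the sign turned in several fits. The log2 ratio of Scd1 over Scd2 averaged 1.48 ± 0.69 in KO and 0.88 ± 0.67 in WT (SD, n = 12 each), a difference of 0.60 ± 0.28 (SE). It was above the WT median in 11 of 12 KO libraries, with a permutation p of 0.0423 and an adjusted p of 0.127 over 3 ratios.

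The desaturases of long polyunsaturated chains had negative log2 changes. Fads2, which starts polyunsaturated fatty acid synthesis (chromosome 19, 10040129 to 10078867, minus strand), ran from 91.9 to 190.8 CPM in KO (median 153.8) and from 130.5 to 289.8 CPM in WT (median 166.3). KO 2, KO 6, KO 9, KO 10 and KO 11 lay below the WT range, and the highest value was that of WT 18. For Fads2 the log2 change was -0.33 ± 0.13 (adjusted p 0.197, edgeR). Fads1, the next desaturase of that route, and Elovl5, its elongase, had log2 changes of -0.17 ± 0.19 and -0.25 ± 0.11, with adjusted p-values of 0.650 and 0.245 in edgeR. Fads1 and Fads2 varied together across libraries (r = 0.76, 24 libraries centred by group), while Fads2 had a median r of -0.03 with the fatty acid arm and of 0.33 with the sterol arm.

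Acss2, which makes acetyl-CoA from acetate (chromosome 2, 155359963 to 155404663, plus strand), ran from 24.9 to 84.9 CPM in KO (median 34.8) and from 16.99 to 40.6 CPM in WT (median 27.3), with 11 of 12 KO values above the WT median. Acss2 had a log2 change of 0.41 ± 0.16 (adjusted p 0.193, edgeR). Me1, the malic enzyme that supplies NADPH (chromosome 9, 86463416 to 86577967, minus strand), ran from 161.5 to 326.5 CPM in KO (median 192.2) and from 86.3 to 260.9 CPM in WT (median 163.4), with a log2 change of 0.33 ± 0.14 (adjusted p 0.214, edgeR). Acly, ATP citrate lyase, had 452.2 ± 122.4 CPM in KO and 370.9 ± 71.5 in WT, with a log2 change of 0.29 ± 0.13 (adjusted p 0.231, edgeR). In all 3 genes the highest value was that of KO 11.

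**Figure D5:**
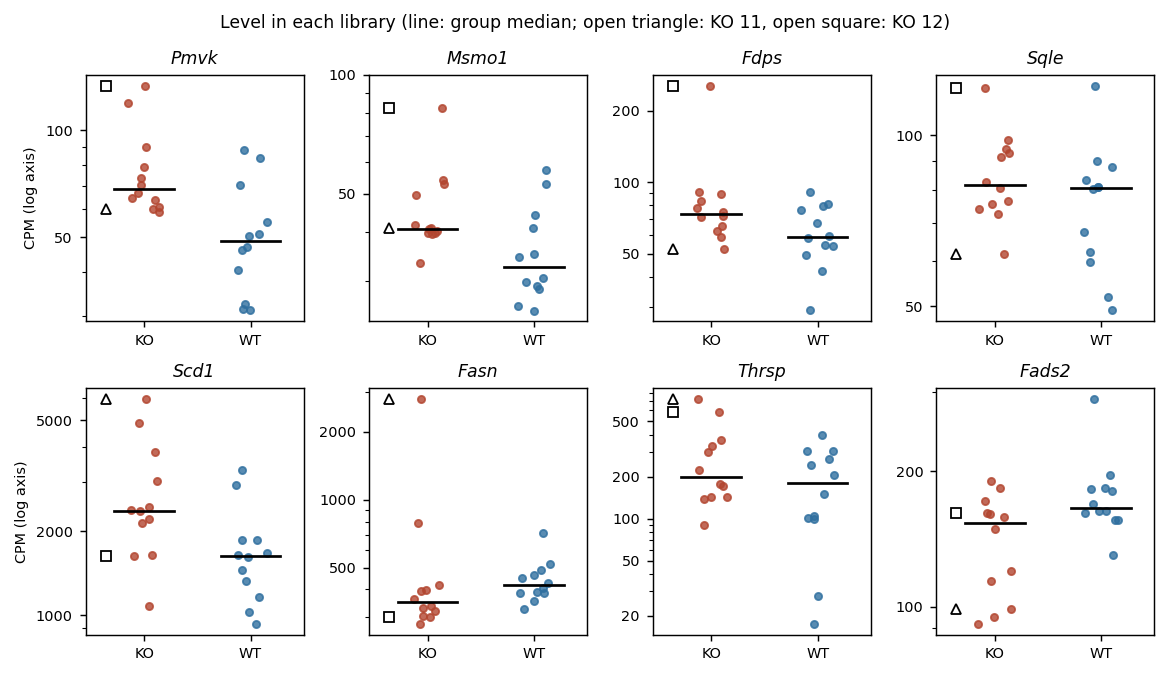
CPM of 8 members in each library (log axis), KO left and WT right, with a line at the group median; the open triangle and square repeat the values of KO 11 and KO 12 at the left edge. Fasn in KO 11 stands at 2801 CPM, while the KO median of 349.9 lies below the WT median of 417.2.

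Among the chain synthesis genes, KO 11 stood far from the other libraries for Fasn and Acaca. Fasn, fatty acid synthase (chromosome 11, 120696784 to 120715992, minus strand), ran from 282.0 to 2801 CPM in KO (median 349.9) and from 325.8 to 714.9 CPM in WT (median 417.2). Although its KO mean of 586.3 ± 710.0 CPM exceeded the WT mean of 442.7 ± 102.3, only 2 of 12 KO libraries were above the WT median. The log2 change was 0.41 ± 0.33 (adjusted p 0.501, edgeR) with all libraries and -0.20 (adjusted p 0.495) without KO 11. DESeq2 gave -0.20 after its default replacement of outlying counts, which among the members touched this 1 count, setting 83149 reads to 11580. Acaca, acetyl-CoA carboxylase, ran from 57.6 to 296.9 CPM in KO (median 70.2) and from 52.7 to 96.8 CPM in WT (median 73.8), with a log2 change of 0.41 ± 0.23 (adjusted p 0.318, edgeR) and 4 of 12 KO values above the WT median. Thrsp ran from 90.5 to 724.6 CPM in KO (median 199.9) and from 17.6 to 400.6 CPM in WT (median 179.1), with a log2 change of 0.60 ± 0.41 (adjusted p 0.422, edgeR). Its highest value was that of KO 11, and KO 12 had 580.6 CPM. Elovl6, which elongates palmitate, had a log2 change of 0.32 ± 0.19 (adjusted p 0.337, edgeR).

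Adipocyte markers had median r values of 0.33 (Plin4) to 0.49 (Fabp4) with the fatty acid arm across the centred libraries. Fibroblast markers had 0.18 to 0.33, macrophage markers 0.15 to 0.35 and tested muscle markers 0.28 to 0.32. Epithelial markers had -0.32 (Epcam) to -0.07 (Krt19). An adipocyte score was taken as the adipocyte markers' mean centred log2 CPM. It and the fatty acid score were both high in KO 8 (2.21 and 0.30) and WT 16 (1.95 and 0.20). In KO 2 (1.86 and -0.14) and WT 20 (1.37 and -0.15) only the adipocyte score was high. In WT 18 (-1.23 and 0.19) and KO 7 (0.16 and 0.20) only the fatty acid score was high. The fatty acid score was 1.04 in KO 11 and at most 0.30 in the other libraries labelled KO, and it ran from -0.55 to 0.20 in WT. KO 11 held the highest KO value of 9 of the 12 genes, while WT 23 held the lowest WT value of 5. The sum of 10 adipocyte markers, of which none was at 0 in all libraries, was 3343 CPM in KO 11, with a range of 98.5 to 3343 CPM in KO (median 305.2) and of 20.4 to 882.4 CPM in WT (median 164.7). WT 23 held the lowest sum. Adipoq, the adipocyte hormone, had 51.8 ± 74.3 CPM in KO and 22.2 ± 23 in WT (log2 change 1.22 ± 0.68, adjusted p 0.322, edgeR). Plin1, which coats fat droplets, had 16.9 ± 26.7 CPM in KO and 7.63 ± 7.92 in WT (log2 change 1.15 ± 0.69, adjusted p 0.364, edgeR). All 10 markers had log2 changes above 0 with a median of 1.19, 2 of them at an unadjusted p under 0.05, and edgeR called 0. These 2 were Fabp4, a fatty acid carrier, with 195.7 ± 321.6 CPM in KO and 69.1 ± 68.2 in WT (log2 change 1.504 ± 0.66, adjusted p 0.225, edgeR), and Lipe, a lipase of fat stores, with 34.2 ± 26.7 CPM in KO and 20.96 ± 9.95 in WT (log2 change 0.71 ± 0.32, adjusted p 0.233, edgeR). With the adipocyte marker score as a covariate, the fatty acid median was 0.15, the sterol median 0.26, the Fasn log2 change -0.22 and the Scd1 log2 change 0.51, with 0 members called. KO 11 was also the highest library for the sum of 5 skeletal muscle markers, at 4242 CPM against KO and WT medians of 146 and 33.9 CPM. The macrophage and fibroblast sums were highest in KO 11 too, at 970.7 and 3618 CPM, and its epithelial sum was the lowest. The parts of fat, muscle and these other tissues in the fatty acid values were not tested further.

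Correlations within each group were computed for 16 pairs, 32 relations in all, each by a two-sided permutation test with Benjamini-Hochberg adjustment over the 32, and 7 values of r passed 0.05. Fasn with Thrsp had r = 0.63 in KO (adjusted permutation p 0.0575), and r = 0.29 without KO 8 and KO 11. In WT the rho of this pair passed and r did not (r = 0.69, permutation p 0.0159, adjusted 0.0545, rho = 0.85, permutation p 0.00102, adjusted 0.0141), with r = 0.72 without WT 16 and WT 23. In KO, Sqle had r of 0.07 with Srebf2, 0.56 with Hmgcs1, 0.02 with Idi1 and 0.30 with the proliferation marker Mki67, with adjusted permutation p-values from 0.113 to 0.946. Without KO 11 and KO 12, the libraries farthest from the Sqle median, they were 0.55, 0.56, 0.35 and 0.39 in that order. In WT, Sqle correlated with Srebf2 (r = 0.86, permutation p 0.00067, adjusted 0.00832, rho = 0.74, permutation p 0.00803, adjusted 0.0493, n = 12). Sqle also correlated in WT with Hmgcs1 (r = 0.81, permutation p 0.00114, adjusted 0.00912, rho = 0.73, permutation p 0.00925, adjusted 0.0493). For Sqle with Idi1 in WT, r passed and rho did not (r = 0.74, permutation p 0.00531, adjusted 0.0283, rho = 0.67, permutation p 0.0197, adjusted 0.0789). The same held for Sqle with Mki67 in WT (r = 0.83, permutation p 0.00078, adjusted 0.00832, rho = 0.69, permutation p 0.0167, adjusted 0.0764). Without the 2 libraries farthest from the Sqle median, WT 13 and WT 19, these r values were 0.77, 0.76, 0.52 and 0.76 in the order given. The difference between the groups was not tested. Mki67 itself had 323.5 ± 86.1 CPM in KO and 340.8 ± 122.9 in WT (log2 change -0.08 ± 0.19, adjusted p 0.848, edgeR). Leaving out 1 WT library at a time, the Srebf2 and Mki67 relations with Sqle passed each time. The Hmgcs1 relation did not pass without WT 18 (r = 0.68), nor the Idi1 relation without WT 13 (r = 0.64), WT 15 (0.74), WT 18 (0.70) or WT 19 (0.71).

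In the fatty acid arm, Fasn correlated with Adipoq in KO (r = 0.76, permutation p 0.00035, adjusted 0.00832, rho = 0.79, permutation p 0.00346, adjusted 0.0277, n = 12). Without KO 11 this r was 0.66 and did not pass (adjusted permutation p 0.0562), and without KO 8 and KO 11 it was 0.57. In WT the pair had r = 0.60 (adjusted permutation p 0.0898), and r = 0.12 without WT 16 and WT 23. Scd1 had r = 0.35 with Adipoq in KO (adjusted permutation p 0.358) and correlated with it in WT (r = 0.80, permutation p 0.00163, adjusted 0.0104, rho = 0.83, permutation p 0.00132, adjusted 0.0141), with r = 0.75 without WT 14 and WT 16. Fasn and Acly had r = 0.79 in KO (adjusted permutation p 0.0576), and r = 0.14 without KO 8 and KO 11. In WT the pair correlated (r = 0.72, permutation p 0.00828, adjusted 0.0379, rho = 0.88, permutation p 0.0004, adjusted 0.0128), with r = 0.75 without WT 16 and WT 23. That r did not pass without WT 13 (r = 0.70), WT 15 (0.71), WT 18 (0.73) or WT 23 (0.66). Sqle and Fasn, 1 gene of each arm, had r of -0.61 in KO and -0.48 in WT (adjusted permutation p 0.106 and 0.189), and of -0.23 without KO 11 and KO 12 and -0.36 without WT 13 and WT 19.

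Over all 228 pairs between the arms the median r across the 24 centred libraries was -0.03, and within the fatty acid arm it was 0.27 over 66 pairs. Without KO 11 and KO 12 the median r within the fatty acid arm was 0.17. The closest fatty acid pairs were Acly with Thrsp (0.79), Acss2 with Fasn (0.78) and Acaca with Fasn (0.77). Acss2 alone among the 12 reached a median r of 0.5 with the arm, a level reached by 0.133% of tested genes.

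Of 24 further fatty acid and glyceride synthesis genes, 22 were tested, 17 had log2 changes above 0 and the median was 0.25. At an unadjusted p under 0.05, 7 were higher and 2 lower in KO, and edgeR called 0. Acsl3, an acyl-CoA synthetase of lipid droplets, had 49.7 ± 5.58 CPM in KO and 59.3 ± 8.93 in WT (log2 change -0.26 ± 0.08, adjusted p 0.121, edgeR). Dgat1, which makes triglyceride, had 44.8 ± 9.41 CPM in KO and 34.7 ± 7.08 in WT (log2 change 0.37 ± 0.12, adjusted p 0.130, edgeR). The milk list held the 2 called genes among the marker lists. Csn1s2a and Glycam1 rose in KO by 7.25 ± 1.55 and 9.42 ± 1.99 on the log2 scale (adjusted p 0.0382 and 0.0373, edgeR), with maxima of 8256 and 9697 CPM in KO 7. Without KO 7 the values were 1.86 and 4.16 (adjusted p 0.158 and 0.110, edgeR). Leaving out KO 10, KO 11 or any WT library except WT 14, and for Glycam1 also WT 19, ended the calls as well, with adjusted p-values of at most 0.0783. The fatty acid score of KO 7, at 0.20, was below that of KO 8 and KO 11. Of 10 milk and alveolar markers, 9 had log2 changes above 0, and their sum ran from 9925 to 69450 CPM in KO and from 3787 to 22730 CPM in WT.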

How the data were processed

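Total RNA of frozen tumours was made into libraries with a stranded mRNA kit, per the labels' protocols. The authors' deposited counts are whole reads per gene from featureCounts 2.0.0 on a GRCm39 annotation, per the file headers, which record no strand option, so overlapping and antisense genes are not told apart. STAR and Subread are named in the submitters' processing notes, without versions. The authors' deposited table gives a log2 fold change, log2 CPM, a signed fold, an F score and p-values; here it was used only for symbols (13972 IDs, with 30790 more from RefSeq and 1556 without one).

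From these counts, filterByExpr and TMM scaling were applied in edgeR 4.0.16 (R 4.3.3), and the quasi-likelihood test was run on 12 against 12 libraries, two-sided, with Benjamini-Hochberg adjustment over 15820 genes and a threshold of 0.05. CPM uses TMM-scaled totals. Scores are mean centred log2 CPM with a prior count of 2. Permutation tests used 100000 resamples. The scripts were tested on simulated data. Within the groups, 132 pairs of libraries were compared by chi-square over genes, and the smallest value per degree of freedom was 25.2, far above sampling noise. No batch or processing order is labelled. The titles number the KO libraries 1 to 12 and the WT libraries 13 to 24. A batch that followed those numbers could not be told apart from genotype.

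The members and lists were chosen with earlier results of these data known. Full values are given for the 4 members of each arm with the smallest p and the 2 highest per length, for list genes past the threshold or among the 2 smallest p, and for Adipoq, Plin1, Mki67, Epcam and Nr0b2 as checks. Alternatives were other scalings (RLE, upper quartile), other tests (voom in limma 3.58.1, and DESeq2 1.42.0), no filter and a stricter filter of 1 CPM in 12 libraries, an adipocyte score as covariate, chromosome medians as offsets, a prior count of 0.5, and leaving out libraries. Counting error is small at these depths beside the spread between tumours.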

Additional observations from a re-analysis of the deposited data

How the results depend on the processing

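In each of the 33 alternative fits 0 members were called. The number of calls over all genes, 50 in the fit reported, was 418 in DESeq2, 100 with the adipocyte score as covariate, 31 without KO 11 and KO 12, and from 9 (without WT 18) to 72 (without WT 14) when 1 library was left out. The sterol median ran from 0.10 to 0.26 and the fatty acid median from 0.12 to 0.37 over all of them. Fasn turned to -0.20 in DESeq2, -0.081 in voom, -0.22 with the adipocyte covariate and -0.17 without KO 11 and KO 12, and ran from -0.20 to 0.49 with 1 library left out. Scd2 was -0.016 with chromosome offsets and ran from -0.023 to 0.096 with 1 left out, and Mvk was -0.008 without KO 11 and KO 12. Of the 3 ratios, 0 passed with all libraries and 1 (Scd1 over Scd2, 0.72, adjusted permutation p 0.0373) without WT 14; the other leave-one-out fits gave 0. Leaving out 1 library, Srebf1 over Srebf2 ran from -0.13 to 0.078 and Insig1 over Insig2 from -0.032 to 0.16. Of the 32 correlations, 7 passed with all libraries, and 4 (without WT 18) to 12 (without KO 12) with 1 left out. In KO, r of Sqle with Idi1 was -0.017 under RLE scaling and ran from -0.14 to 0.46 with 1 library left out, and r of Sqle with Srebf2 was -0.0021 under RLE, -0.11 with chromosome medians subtracted and from -0.072 to 0.60. The ranges with 1 KO library left out were -0.48 to 0.016 for Sqle with Insig1, -0.024 to 0.60 for Fasn with Scd1, -0.14 to 0.63 for Thrsp with Adipoq and -0.23 to 0.50 for Fasn with Mki67. In WT that of Scd2 with Adipoq was -0.38 to 0.12. Except where a library was left out or its count replaced, the cause was not tested. No paired analysis was possible because the KO and WT libraries share no replicate numbers. With 12 tumours a group and no separate animals stated, the p-values cover these tumours only, and their spread, more than the read depth, limits what can be called.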

Other observations

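The marker lists for other cells of the tumour gave 0 calls in edgeR apart from the milk list. All 6 macrophage markers and all 6 fibroblast markers had log2 changes (KO over WT) above 0, with medians of 0.26 and 0.41, and 2 of the macrophage markers were at an unadjusted p under 0.05. Mrc1, the mannose receptor of tissue macrophages, had 65.7 ± 36.9 CPM in KO and 40.0 ± 18.2 in WT (adjusted p 0.195, edgeR), and C1qb, a complement subunit, had 184.4 ± 45.2 CPM in KO and 147.3 ± 36.2 in WT (adjusted p 0.228, edgeR). The collagen gene Col3a1 had 926.9 ± 425.9 CPM in KO and 636.4 ± 338.8 in WT (adjusted p 0.311, edgeR), and Lum, a matrix proteoglycan, had 84.8 ± 49.9 CPM in KO and 57.1 ± 35.0 in WT (adjusted p 0.338, edgeR).

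Of 7 epithelial markers, 5 lay above 0 with a median of 0.15, and the smallest p-values were those of the keratin Krt19 (log2 change -0.51 ± 0.28, adjusted p 0.319, edgeR) and the claudin Cldn7 (0.27 ± 0.15, adjusted p 0.338, edgeR). The cycling markers were split, 3 of 6 above 0, with Cdk1 at 0.23 and Top2a at -0.20 (adjusted p 0.576 and 0.596, edgeR). The 4 tested skeletal muscle markers of 5 had a median of 2.36, with Acta1 at 2.42 ± 1.03 and Ckm at 2.38 ± 1.02 (adjusted p 0.213 and 0.216, edgeR), and their sums spanned 0.85 to 4242 CPM in KO and 0.80 to 413.2 CPM in WT. Of 6 sebocyte markers 3 were tested, with Far2 at 0.47 ± 0.24 and Scd3, a sebaceous paralogue of Scd1, at 0.43 ± 0.25 (adjusted p 0.287 and 0.346, edgeR).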
